A study of Mus musculus with 23 samples.

Results

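Amino acid supply in a proliferating lymphocyte depends in part on a group of genes, many of them induced by the transcription factor ATF4. The group examined here holds enzymes that make serine, glycine, asparagine, proline and cysteine, the folate enzymes of one-carbon metabolism, amino acid transporters, aminoacyl-tRNA synthetases, and ATF4 with its stress targets. The list names 40 genes, chosen by symbol for these roles with earlier results of these data known. Shares of the list that are called are therefore descriptive. The deposited table of 19945 genes holds 38 of them, and Phgdh and Mars1 were not analysed here. All 38 passed the filter on low values (a normalized count of at least 10 in at least 5 libraries), as did 15268 genes in all.

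The study followed transferred group 2 innate lymphoid cells (ILC2s, lymphocytes without antigen receptors that make type 2 cytokines) in mice with a stroke made by middle cerebral artery occlusion (MCAO). RNA was sequenced from 23 libraries in 4 groups: transferred ILC2s from brain on day 5 (6 libraries), from blood on day 5 (6), from blood on day 1 (6), and taken directly from the culture as the base group (5). All groups share 1 origin. Male donors aged 8 to 10 weeks, labelled B6.Cg-Tg(CAG-GFP)Smoc and described as both transgenic (GFP under the ubiquitous CAG promoter) and wild type, had IL-33 injected every 2 days for 7 days. Their lineage-negative CD25+ bone marrow and spleen cells then grew for 14 days in medium with IL-7, IL-2, IL-33 and also IL-15. The cells given by vein 6 hours after MCAO had passed a FACS gate of CD45+Lin-ST2+KLRG1+CD127+. Whether the base cells passed it, how transferred cells were sorted again on recovery, and whether each library is a separate animal is not given in the sources used here, so p-values measure the spread between libraries, which may be partly technical.

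ATF4 is translated when the kinases of the integrated stress response phosphorylate the initiation factor eIF2α, for example when amino acids run short, and it is also raised through mTORC1 and MYC in growing cells. It then induces synthesis enzymes, transporters and synthetases together with stress targets such as TRIB3, CHAC1 and SESN2. Activated lymphocytes are known to raise serine and one-carbon enzymes to make nucleotides.

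Markers of other cells were read in the libraries, and those of the brain held little ILC2 marker RNA, against their label. Of 7 ILC2 markers tested, 4 were lower and 3 higher in brain than in base. Over the 8 in the table, the summed share of the normalized total was 0.00655 to 0.0153% in brain day 5, 0.195 to 0.271% in blood day 5, 0.03 to 0.212% in blood day 1 and 0.17 to 0.338% in base. On the lower side, Klrg1 had 1.87 to 23.4 in brain against 15664 to 50175 in base. Ptprc, which encodes CD45, had 700.4 to 2785 in brain against 12050.0 to 19947 in base. Brain values of the 3 markers called higher are not given here. In base, Il1rl1 (ST2) reached at most 5.42 and Il7r (CD127) at most 75.8, although both belong to the sort gate. Choroid plexus markers (6 of 6 called higher in brain than in base) held 1.35 to 7.83% of the total in brain, 0.00028 to 0.0206% in blood day 5, 0 to 0.137% in blood day 1 and 7.79e-06 to 0.00162% in base. Microglia (7 of 7), oligodendrocyte (6 of 6) and astrocyte markers (7 of 7) were likewise called higher in brain than in base, at 0.54 to 1.32%, 0.869 to 1.43% and 0.0828 to 0.237% of the total in brain against 0.00872 to 0.0128%, 0.0159 to 0.0443% and 0.00868 to 0.0427% in base. In blood day 5, 5 microglia, 5 oligodendrocyte and 1 astrocyte markers were called higher than base. On day 1 these were 4, 6 and 0. On each day 2 astrocyte markers were called lower. Microglia markers held 0.07 to 0.103% on day 5 and 0.062 to 0.114% on day 1, and oligodendrocyte markers 0.0679 to 0.183% and 0.0491 to 0.218%. Sall1 (microglia) and Clic6 (choroid plexus) had no read in base. Erythroid markers (4 of 4 called higher in both blood groups) held 0.267 to 3.72% in blood day 5 and 0.357 to 8.39% in blood day 1, against 0.00104 to 0.409% in base, where replicate 4 was highest. Platelet markers held 0.137 to 1.34% on day 5 and 0.319 to 4.81% on day 1, against 0.000308 to 0.0285% in base, and their B cell share was 0.18 to 0.43% on day 5 and 0.0441 to 0.269% on day 1. Library depth was 11.6M to 58.1M reads. The labels name 2 batches, of 12 libraries (at most 16.9M reads) and 11 libraries (at least 27.8M), and each group holds both. Within their own groups, the libraries least like the others were brain day 5 replicate 2, blood day 1 replicates 2 and 6 and base replicate 5, with median correlations across genes of 0.795, 0.773, 0.836 and 0.852. The other brain libraries had 0.837 to 0.849.

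Most of these amino acid genes were lower in each transferred group than in culture. A gene is called where its adjusted p in limma, over all genes tested, is below 0.05. In brain day 5, 23 of 38 members were called lower than base and 5 higher, beside 11.7% and 37.5% of all genes tested (49.2% called in either direction). In blood day 5, 26 were called lower and 1 higher, beside 11.4% and 19.6% (31.1% in either direction). In blood day 1, 28 were called lower and 1 higher, beside 14% and 18.1% (32.1% in either direction). Values did not overlap with base for 19 members in brain day 5, 23 in blood day 5 and 18 in blood day 1, beside 35.6%, 24.7% and 17.1% of all genes. The median log2 difference of the members was -1.38 in brain day 5, -1.69 in blood day 5 and -1.65 in blood day 1, beside 0.67, 0.14 and 0.04 for all genes tested. These 3 comparisons share the base libraries. In them 18 members were lower each time, 3 (Psph, Mthfd1 and Stc2) were never called, and 1, Cebpb, was higher each time. The matching shares of all genes tested were not counted, so these joint counts are descriptive. Together the 38 members took up 0.238 to 0.405% of the normalized total in brain day 5, 0.223 to 0.317% in blood day 5, 0.107 to 0.323% in blood day 1 and 0.397 to 0.703% in base. In bulk libraries, fewer cells that express a gene and less of its RNA per cell cannot be told apart. The part that RNA of other cells plays in these differences was not tested.

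**Figure D1:**
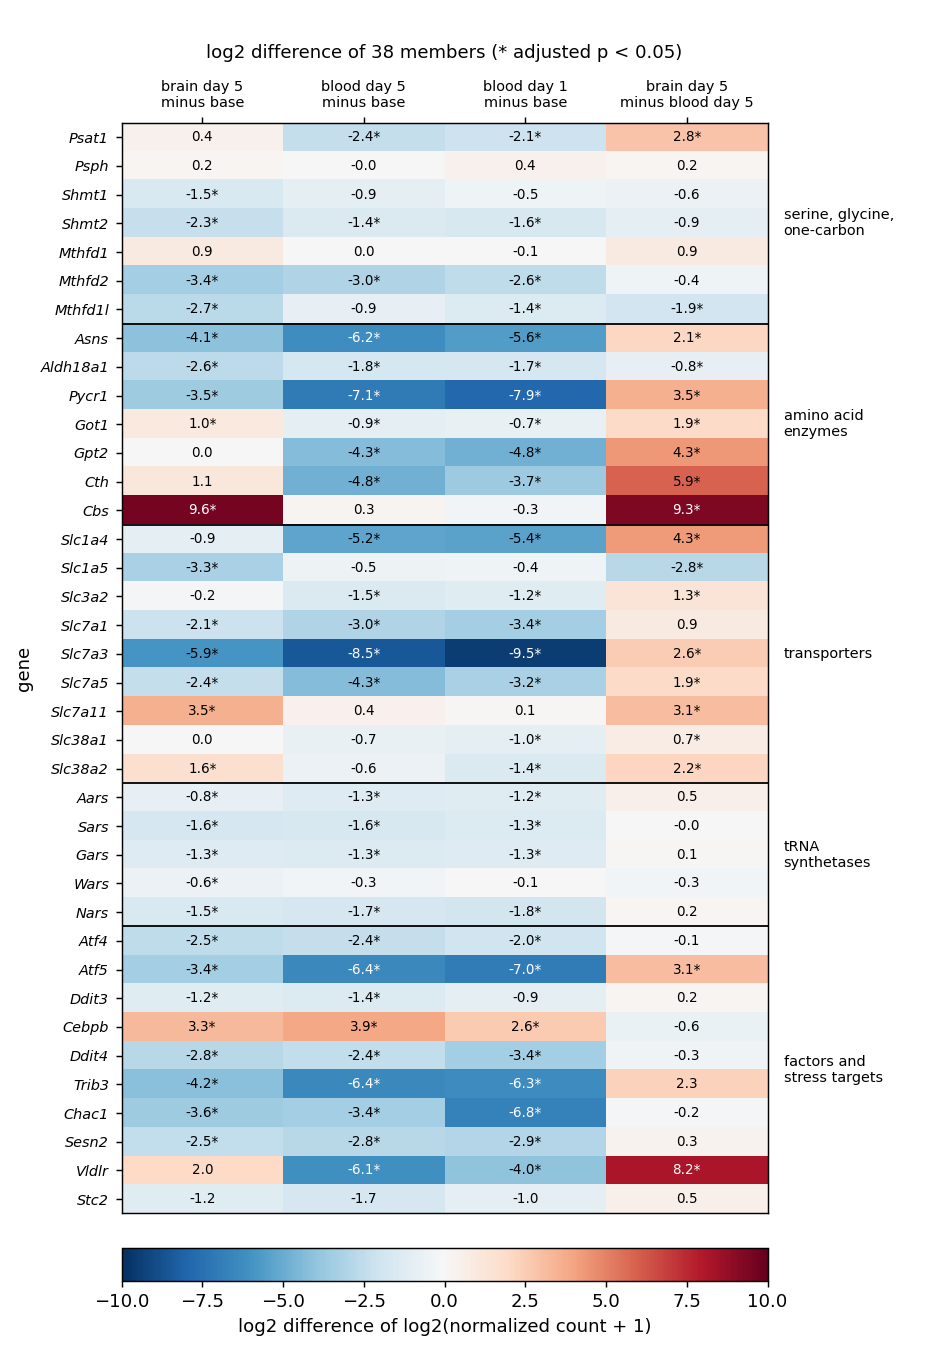
Log2 differences of the 38 members (rows, by role) in 4 comparisons (columns), from the model over all 23 libraries; an asterisk marks an adjusted p below 0.05, and blue is lower and red higher in the group named first. Against base, blue fills most of the 3 left columns, with 23, 26 and 28 calls lower, while the right column, brain day 5 minus blood day 5, has 16 calls higher and 3 lower.

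RNA of Atf4 itself was lower. Atf4 (mm10, chr15:80255184-80257541, plus strand) had normalized counts of 973 to 2388 (median 1967) in brain day 5, 1649.9 to 2385 (median 1904) in blood day 5, 1439.6 to 6189 (median 2599) in blood day 1, and 12124, 11801, 12145, 11936 and 5289.9 in base. All brain and blood day 5 libraries lay below every base library, while blood day 1 replicate 2 lay above base replicate 5. Its log2 difference from base was -2.50 ± 0.33 (adjusted p = 9.42e-07) in brain day 5, -2.42 ± 0.33 (adjusted p = 4.86e-06) in blood day 5 and -2.02 ± 0.33 (adjusted p = 4.96e-05) in blood day 1. Brain and blood day 5 did not differ detectably in Atf4, at -0.09 ± 0.32 (adjusted p = 0.85). As a transcript level this says nothing of ATF4 protein, which is mainly set by translation.

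Stress targets of ATF4 were lower as well. TRIB3 is a pseudokinase that binds ATF4 and dampens its activity. Trib3 had 102 to 262 (median 129) in brain day 5, 2.29 to 86.9 (median 38.4) in blood day 5, 0 to 131 (median 69.3) in blood day 1, and 1621, 1539.7, 1745, 7022 and 3243 in base. No transferred library reached the lowest base library, and the differences from base were -4.18 ± 1.01 in brain day 5, -6.45 ± 1.01 in blood day 5 and -6.28 ± 1.01 in blood day 1 (adjusted p = 0.00126, 2.57e-05 and 3.88e-05). ATF5 is a related factor induced with ATF4. Atf5 had 23.9 to 807 (median 49.1) in brain day 5, 1.4 to 61.9 (median 13.2) in blood day 5, 0 to 37.8 (median 9.25) in blood day 1, and 1544, 1673, 1835, 735 and 366 in base. In brain it split by library, with 665 and 807 in replicates 1 and 3 and at most 63.9 in the other 4. Its difference from base was -3.38 ± 1.12 (adjusted p = 0.0153) in brain, -6.44 ± 1.12 (adjusted p = 9.49e-05) in blood day 5 and -6.97 ± 1.12 (adjusted p = 4.11e-05) in blood day 1. Atf5 exons overlap those of Il4i1 and Nup62 on the opposite strand, and the strand setting of the counting is not given, so its reads are uncertain. Of the other targets, Chac1, which encodes a glutathione-degrading enzyme, fell by 3.59, 3.41 and 6.75 on the log2 scale in brain, blood day 5 and blood day 1. Sesn2, a leucine sensor that restrains mTORC1, fell by 2.47, 2.81 and 2.92, and Ddit4, another mTORC1 inhibitor, by 2.76, 2.43 and 3.40, in the same order. Chac1 in blood day 5 was not called with the closest libraries averaged (adjusted p = 0.0551; 0.000445 to 0.0551 over all alternatives), nor Atf5 in brain with DESeq2 (0.0583; 0.0049 to 0.0583).

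**Figure D2:**
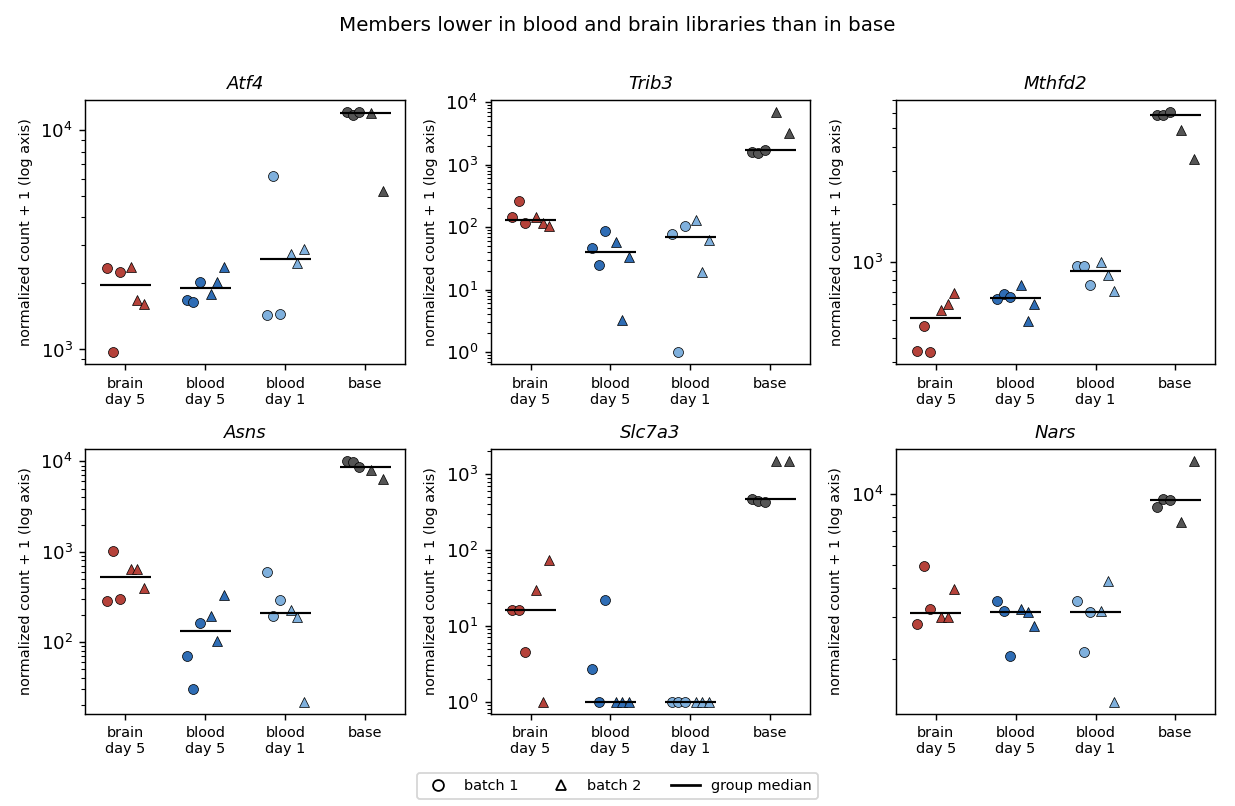
Normalized counts plus 1 of 6 members by library on log axes, with groups from brain day 5 to base, circles for batch 1, triangles for batch 2 and a line at the group median. Trib3, Mthfd2, Asns, Slc7a3 and Nars lie below every base library in all 18 transferred libraries, and Atf4 in 17 of them.

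Ddit3, which encodes the stress factor CHOP, was the least steady call of this role. Its values were 501 to 1164 in brain, 489 to 881 in blood day 5, 628 to 1954 in blood day 1, and 789, 771, 845, 7042 and 3526 in base, so that the base libraries of batch 1 overlapped the transferred ones and those of batch 2 did not. The difference from base in brain, -1.19 ± 0.48 (adjusted p = 0.0428), was 0.16 in batch 1 and -3.07 in batch 2, and without base replicate 4 it was -0.60 (adjusted p = 0.228). The call was also lost without base replicate 5 or any one of brain replicates 1, 3, 4, 5 and 6 (adjusted p = 0.0526 to 0.154; 0.00109 to 0.228 over all alternatives). In blood day 5 it was -1.38 ± 0.48 (adjusted p = 0.0315), and -0.78 without base replicate 4 (adjusted p = 0.148), and not called without base replicate 5 or any one of blood day 5 replicates 4, 5 and 6 (adjusted p = 0.0547 to 0.113; 0.000432 to 0.148 over all alternatives). Ddit3 also shares 68 bp of exon with the opposite strand of Mars. Stc2, a secreted glycoprotein, was near the filter, at no more than 71.9 in any library.

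Cebpb moved against the rest. It encodes C/EBPβ, a partner of ATF4 that is also a factor of macrophages and other myeloid cells. Cebpb had 1986 to 4559 (median 3512) in brain day 5, 3351 to 7870.3 (median 5149) in blood day 5, 1523 to 2609 (median 2315) in blood day 1, and 366, 258, 284, 682 and 261 in base. Every brain and blood library lay above every base library. Cebpb shares 312 bp of exon with Tmem189 on the opposite strand, so its reads are uncertain. The differences from base were 3.28 ± 0.28 (adjusted p = 1.26e-09) in brain, 3.90 ± 0.28 (adjusted p = 4.49e-10) in blood day 5 and 2.63 ± 0.28 (adjusted p = 1.61e-07) in blood day 1. Of 4 myeloid markers tested, 2 were called higher than base in brain, 4 in blood day 5 and 3 in blood day 1, with a summed share of 0.0384 to 0.148% in brain, 0.148 to 2.07% in blood day 5, 0.0317 to 0.185% in blood day 1 and 0.00187 to 0.0144% in base and none at 0 throughout a group. What they contribute to Cebpb was not tested.

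Enzymes that make asparagine and proline fell in all 3 comparisons with base. Asns encodes asparagine synthetase, a textbook ATF4 target, and its normalized counts were 286 to 1014 (median 522) in brain day 5, 29.3 to 333 (median 130.5) in blood day 5, 21 to 597 (median 211) in blood day 1, and 10018, 9817, 8737, 7944 and 6322 in base. It lay below base in all 18 transferred libraries, at -4.09 ± 0.65 in brain, -6.19 ± 0.65 in blood day 5 and -5.56 ± 0.65 in blood day 1 (adjusted p = 1.19e-05, 1.10e-07 and 5.82e-07). PYCR1 carries out the last step of proline synthesis in mitochondria. Pycr1 had 133 to 336 (median 185) in brain day 5, 0 to 60.2 (median 26.4) in blood day 5, 0 to 56.3 (median 22.3) in blood day 1, and 1926, 2058, 2078, 3260.0 and 2419 in base. The groups did not overlap with base in any comparison, and brain lay between blood and base. Pycr1 differed from base, at -3.55 ± 1.08 (adjusted p = 0.00874) in brain, -7.06 ± 1.08 (adjusted p = 2.08e-05) in blood day 5 and -7.86 ± 1.08 (adjusted p = 5.67e-06) in blood day 1. The brain call was lost with the closest libraries averaged (adjusted p = 0.0501; 1.04e-06 to 0.0501 over all alternatives). Aldh18a1, the preceding proline enzyme, had 549 to 1515 (median 958) in brain, 1281 to 1999 (median 1712) in blood day 5, 1229 to 3459.6 (median 1612) in blood day 1, and 6284, 5925, 6274, 4929.6 and 5369.7 in base. It was lower, at -2.60 ± 0.28, -1.75 ± 0.28 and -1.69 ± 0.28 in the same order, and unlike Pycr1 it was lower in brain than in blood day 5, at -0.85 ± 0.26 (adjusted p = 0.0099).

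Promoters of some members share a sequence. ATF4 binds with C/EBP partners to a composite element whose core is searched here as TGATGNAA, or TTNCATCA on the other strand, and no other motif was searched. RefSeq promoters (GRCm38.p6, 250 bases before to 50 after the start) were matched for 31 of the 38 members, without Cth, Slc1a5, Slc7a3, Slc7a5, Slc38a1, Wars and Nars. The core was found in 10 of these 31 (32.3%), against 1219 of 27025 genes with a promoter (4.51%). The 10 are Asns, Pycr1, Got1, Slc1a4, Slc7a11, Aars, Gars, Trib3, Chac1 and Vldlr. Of them 9 were lower than base in blood day 5 and 6 in brain day 5, beside 13 and 12 of the 21 members without a match. The match is a description of letters, and binding was not measured. Shown are Asns and Pycr1, lower in all transferred groups, Slc1a4, called lower in both blood groups, and Slc7a11, called higher in brain, with the matches in capitals. Asns lies at chr6:7693160-7693459, minus strand, Pycr1 at chr11:120643699-120643998, minus strand, Slc1a4 at chr11:20332664-20332963, minus strand, and Slc7a11 at chr3:50443564-50443863, minus strand.
Asns: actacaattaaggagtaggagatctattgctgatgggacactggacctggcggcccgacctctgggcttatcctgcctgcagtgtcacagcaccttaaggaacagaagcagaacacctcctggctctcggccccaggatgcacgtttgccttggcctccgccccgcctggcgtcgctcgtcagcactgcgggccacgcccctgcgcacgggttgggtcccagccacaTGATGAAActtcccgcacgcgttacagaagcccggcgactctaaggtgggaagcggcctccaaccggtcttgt
Pycr1: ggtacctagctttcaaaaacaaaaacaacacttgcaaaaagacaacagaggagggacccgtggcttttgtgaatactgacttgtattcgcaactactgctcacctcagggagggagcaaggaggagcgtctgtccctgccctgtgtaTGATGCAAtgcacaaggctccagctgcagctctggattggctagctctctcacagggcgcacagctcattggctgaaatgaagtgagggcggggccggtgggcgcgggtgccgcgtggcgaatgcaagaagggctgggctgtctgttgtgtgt
Slc1a4: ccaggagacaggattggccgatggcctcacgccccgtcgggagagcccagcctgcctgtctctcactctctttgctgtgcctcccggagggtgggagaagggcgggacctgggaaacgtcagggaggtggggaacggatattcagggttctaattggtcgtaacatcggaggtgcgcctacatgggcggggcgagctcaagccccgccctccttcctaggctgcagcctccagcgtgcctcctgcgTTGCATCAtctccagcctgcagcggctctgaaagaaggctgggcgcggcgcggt
Slc7a11: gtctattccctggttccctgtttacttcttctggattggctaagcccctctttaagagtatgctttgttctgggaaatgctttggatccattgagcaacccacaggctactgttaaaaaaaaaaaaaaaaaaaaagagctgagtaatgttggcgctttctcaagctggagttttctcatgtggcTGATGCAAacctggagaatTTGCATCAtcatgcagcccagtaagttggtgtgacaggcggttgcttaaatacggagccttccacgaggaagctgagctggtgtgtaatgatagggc
The match starts at -23 from the transcription start in Asns, at -103 in Pycr1 and at -4 in Slc1a4, and Slc7a11 holds 2, at -66 on the forward and -47 on the reverse strand.

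The transaminases and transsulfuration enzymes were called higher in brain than in blood day 5, as were 33.6% of all genes tested. GPT2 and GOT1 move amino groups between glutamate and alanine or aspartate. Gpt2 had 560.5 to 1312 (median 851) in brain day 5, 21.5 to 85.3 (median 39) in blood day 5, 0 to 189 (median 58.6) in blood day 1, and 661, 769, 498, 747 and 2424 in base. Blood lay below all base libraries, at -4.30 ± 0.97 (adjusted p = 0.00142) on day 5 and -4.81 ± 0.97 (adjusted p = 0.000522) on day 1, while brain overlapped base, at 0.00 ± 0.97 (adjusted p = 0.999). Got1 had 1605 to 3893 (median 2574) in brain, 577 to 792 (median 669) in blood day 5 and 610.2 to 966 (median 753) in blood day 1, with 1394, 1416, 1537, 1140.4 and 927 in base. Brain lay above every base library, by 1.01 ± 0.24 (adjusted p = 0.00122), and blood day 5 below every one, at -0.89 ± 0.24 (adjusted p = 0.00665). The Got1 fall in blood day 1, -0.73 ± 0.24 (adjusted p = 0.0249), lost its call with equal library totals (adjusted p = 0.0778), as did that of day 5 (0.139). Without base replicate 1, 2 or 3 its adjusted p in blood day 1 was 0.057, 0.06 and 0.069, within 0.00647 to 0.151 over all alternatives (for day 5, 0.000668 to 0.139).

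Cbs and Cth encode the 2 successive enzymes that turn homocysteine into cysteine. Cbs (chr17:31608894-31637238, minus strand) had 118 to 6710.3 (median 905) in brain, with 6710.3 in replicate 3. In blood day 5 it was at 0 in 5 libraries and at 8.03 in replicate 6, it was at 0 in all of blood day 1, and base held 2 reads, both in replicate 4. The ratio of read rates in brain to base was 2830 (95% counting interval 782 to 23300, exact Clopper-Pearson, counting error only). Cbs passed the filter on low values only through the brain libraries, where it was high, so its calls in brain are descriptive. Cth had 66.8 to 193 (median 125) in brain day 5, 0 to 5.74 (median 0.767) in blood day 5, 0 to 13 (median 6.38) in blood day 1, and 238, 212, 193, 16.9 and 2.22 in base. Base thus held 2 levels, and the differences were -6.70 in batch 1 and 0.34 in batch 2 for blood day 1 and -7.75 in batch 1 and -0.87 in batch 2 for blood day 5. Over both batches Cth was lower in blood day 5 (-4.80 ± 1.04, adjusted p = 0.00098) and in blood day 1 (-3.67 ± 1.04, adjusted p = 0.00959, with 0.183 when the closest libraries were averaged and 1.06e-05 to 0.183 over all alternatives). Its difference in brain was 1.11 ± 1.04 (adjusted p = 0.41).

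**Figure D3:**
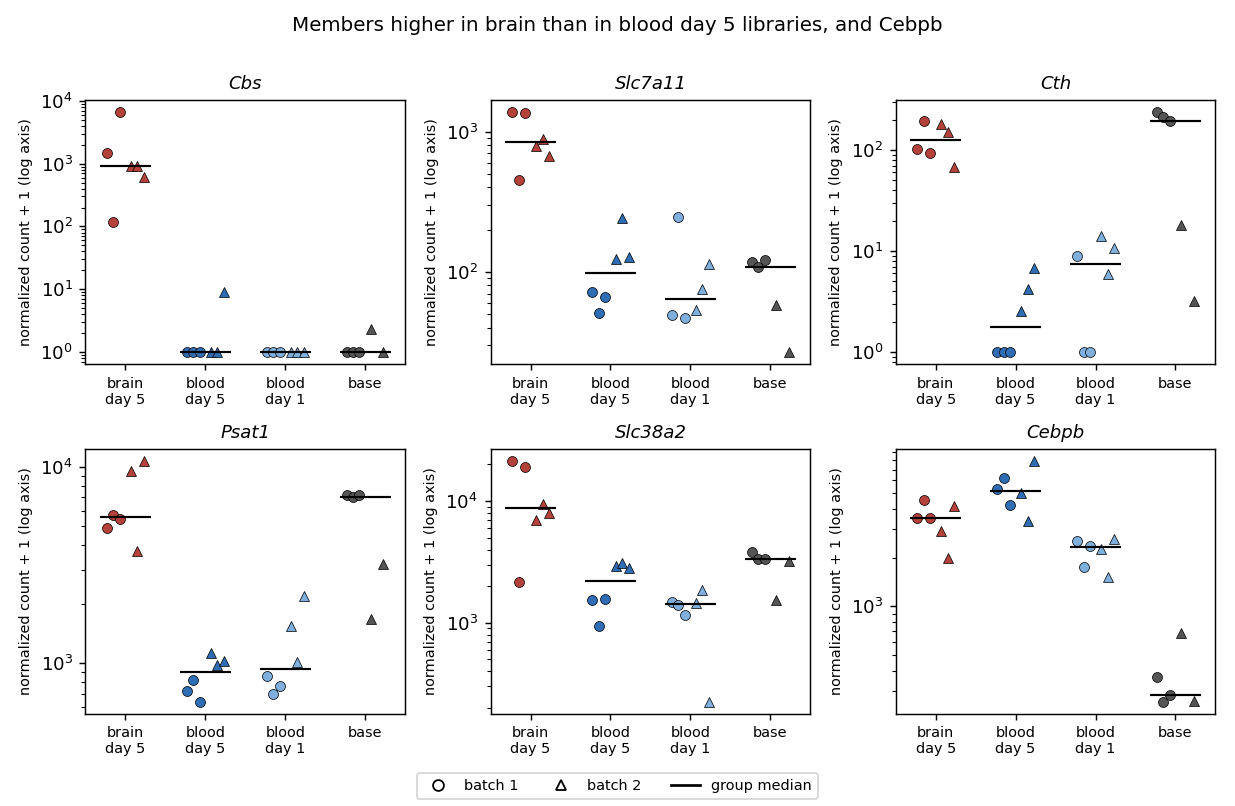
Normalized counts plus 1 of 6 members by library on log axes, laid out from brain day 5 to base, with circles for batch 1, triangles for batch 2 and a line at the group median. Cbs, Slc7a11, Cth and Psat1 are higher in all 6 brain than in all 6 blood day 5 libraries; Cebpb is lowest in base, where 5 libraries have 258 to 682.

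Of the 7 serine and one-carbon enzymes, Mthfd2 and Shmt2 were lower in all 3 comparisons with base. MTHFD2 is the mitochondrial folate dehydrogenase known for its induction in dividing cells. Mthfd2 had 337 to 690.4 (median 511) in brain day 5, 489 to 759.8 (median 645) in blood day 5, 701 to 1000.4 (median 899) in blood day 1, and 5853, 5854, 6084, 4887 and 3462 in base. All transferred libraries were far below base, at -3.41 ± 0.23 (adjusted p = 1.87e-11) in brain, -3.02 ± 0.23 (adjusted p = 8.46e-10) in blood day 5 and -2.58 ± 0.23 (adjusted p = 9.60e-09) in blood day 1. Shmt2, which splits serine in mitochondria, was lower, at -2.32 ± 0.40 (adjusted p = 3.36e-05), -1.44 ± 0.40 (adjusted p = 0.00775) and -1.62 ± 0.40 (adjusted p = 0.0033). Base replicate 5, at 2007, lay below every blood day 5 library (2076 to 2740), while the other base libraries had 6782 to 8945. Blood day 1, at 830 to 6065, overlapped base as well. The Shmt2 call in blood day 5 was lost with equal library totals (adjusted p = 0.0984) and with the closest libraries averaged (0.113; 4.68e-07 to 0.113 over all alternatives), and that in blood day 1 in 2 alternatives (4.00e-07 to 0.0671 over all). Its exons overlap those of Ndufa4l2 on the opposite strand. Mthfd1l, the mitochondrial formate-releasing enzyme, had 137 to 258 (median 174) in brain, 466 to 1001 (median 692) in blood day 5, 189 to 1254 (median 458) in blood day 1 and 2226, 2283, 2390.1, 239 and 957 in base. Base replicate 4 lay among the brain and blood day 1 values, and the difference in brain was -2.73 ± 0.52 (adjusted p = 0.0001). In blood day 5 Mthfd1l was not called (-0.86 ± 0.52, adjusted p = 0.23; -2.20 in batch 1 and 0.92 in batch 2). In blood day 1 it was -1.40 ± 0.52 (adjusted p = 0.0421), at -2.75 in batch 1 and 0.39 in batch 2. That call was lost without any of base replicates 1 to 3 or blood day 1 replicates 1 to 5 (adjusted p = 0.0503 to 0.12), and ranged from 0.000581 to 0.393 over all alternatives.

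Shmt1, the cytosolic counterpart of Shmt2, was called lower in brain, at -1.52 ± 0.51 (adjusted p = 0.0162), but its difference was -2.81 in batch 1 and 0.15 in batch 2. Its adjusted p ranged from 0.00125 to 0.271 over the alternatives, and its call was lost without base replicate 2 or 3 (0.0522 and 0.0538). Mthfd1, the cytosolic enzyme of 3 folate reactions, was at 0.93 ± 0.47, 0.02 ± 0.47 and -0.05 ± 0.47 in brain, blood day 5 and blood day 1, none called. Within batches its differences had opposite signs, at -0.50 in batch 1 and 2.87 in batch 2 for brain, -1.35 in batch 1 and 1.90 in batch 2 for blood day 5 and -1.31 in batch 1 and 1.72 in batch 2 for blood day 1. Psph, the last enzyme of serine synthesis, was at 0.16 ± 0.26, 0.00 ± 0.26 and 0.45 ± 0.26, none called. Exons of Psph overlap those of Cct6a, of Shmt1 those of Smcr8 and of Mthfd1 those of Gm47525, each on the opposite strand, so their reads are uncertain. Psat1, the enzyme before it, had 3713 to 10689.9 (median 5553) in brain day 5, 637 to 1124 (median 899.9) in blood day 5, 694 to 2193 (median 936) in blood day 1, and 7185, 7054, 7172, 1670.3 and 3202 in base. Blood day 5 lay below all base libraries, while brain overlapped base. Psat1 was lower, at -2.41 ± 0.38 (adjusted p = 3.26e-05) in blood day 5 and at -2.09 ± 0.38 (adjusted p = 0.00018) in blood day 1, and not called in brain (0.43 ± 0.38, adjusted p = 0.379).

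Of the 9 transporters, 7 were lower in blood day 1, 5 in blood day 5 and 4 in brain, where 2 were higher. Slc7a3, a carrier of arginine and lysine, had no read in any blood day 1 library. Its values were 0 to 73.2 (median 15.1) in brain, 0 to 20.5 (median 0) in blood day 5, and 469, 442, 423, 1476 and 1474 in base. Against a floor of 3 reads per library, Slc7a3 was at least 230-fold lower in blood day 1 than in base (at least 79.7-fold within batch 1 and 793-fold within batch 2). It was lower, at -5.93 ± 0.94 (adjusted p = 1.10e-05) in brain and -8.51 ± 0.94 (adjusted p = 2.33e-07) in blood day 5. With Slc7a3 at its bound, the members' median for blood day 1 was still -1.65. The carrier Slc7a5, whose partner Slc3a2 joins it in the leucine transporter LAT1, had 654 to 3570.1 in brain, 261 to 1185 in blood day 5, 591 to 1972 in blood day 1 and 16522, 16181, 16843, 9017 and 2799 in base. Slc7a5 was lower, at -2.40 ± 0.50 (adjusted p = 0.000291), -4.32 ± 0.50 (adjusted p = 4.46e-07) and -3.25 ± 0.50 (adjusted p = 2.19e-05). Slc3a2 was lower in blood, at -1.48 ± 0.27 (adjusted p = 0.000182) on day 5 and -1.25 ± 0.27 (adjusted p = 0.00119) on day 1, and was not called in brain (-0.20 ± 0.27, adjusted p = 0.592). Slc7a1, another arginine carrier, was lower, at -2.15 ± 0.68, -3.03 ± 0.68 and -3.42 ± 0.68 in brain, blood day 5 and blood day 1. In brain its difference was -3.56 in batch 1 and -0.21 in batch 2, and the call was lost with the closest libraries averaged (adjusted p = 0.12; 9.14e-05 to 0.12 over all alternatives).

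Other carriers differed between brain and blood day 5, as did 47.9% of all genes tested. Slc1a5 carries glutamine and other neutral amino acids into lymphocytes. Slc1a5 had 723 to 1271 (median 797) in brain day 5, 4129.9 to 8223 (median 6347) in blood day 5, 3913 to 11816 (median 5731) in blood day 1, and 8234, 8842, 8991, 13026 and 4646 in base. Blood overlapped base on both days (-0.48 ± 0.28 on day 5 and -0.42 ± 0.28 on day 1, not called), while brain lay below every base library, at -3.25 ± 0.28 (adjusted p = 1.57e-09). Slc1a4 carries alanine, serine and cysteine. Its values were 17 to 1098 (median 573) in brain day 5, 0 to 52.5 (median 28.7) in blood day 5, 0 to 217 (median 16.8) in blood day 1, and 525, 687, 545, 696 and 979 in base. Blood lay below base, at -5.24 ± 1.30 (adjusted p = 0.00308) on day 5 and -5.36 ± 1.30 (adjusted p = 0.00278) on day 1. Brain replicate 2, at 17, was the only brain library down among the blood values, and the brain difference was -0.94 ± 1.30 (adjusted p = 0.584).

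Slc7a11 encodes the cystine importer xCT, which astrocytes and macrophages also express. Slc7a11 had 448 to 1382 (median 839) in brain day 5, 50.3 to 239 (median 97.3) in blood day 5, 45.7 to 245 (median 63.1) in blood day 1, and 117, 108, 120.5, 56.9 and 25.9 in base. All brain libraries lay above every base library, at 3.52 ± 0.57 (adjusted p = 1.45e-05), and blood did not differ detectably from base (0.40 ± 0.57 on day 5 and 0.09 ± 0.57 on day 1). Slc38a2, the stress-induced neutral carrier SNAT2, had 2147 to 21222 (median 8773) in brain day 5, 941 to 3088 (median 2192) in blood day 5, 225 to 1868 (median 1424) in blood day 1, and 3797, 3321, 3369, 1544 and 3222 in base. In brain, replicates 1 and 3 were the highest and replicate 2 lay among the base values. Slc38a2 was called higher in brain than in base (1.60 ± 0.55, adjusted p = 0.0181), and lost its call without base replicate 4, brain replicate 1 or brain replicate 3 (adjusted p = 0.0617, 0.0549 and 0.052; 0.00028 to 0.0708 over all alternatives). Its call in blood day 1 (-1.44 ± 0.55, adjusted p = 0.047) was lost under 15 of 21 alternatives, including without any one of base replicates 1, 2, 3 and 5 or blood day 1 replicates 1, 2, 3 and 6 (adjusted p = 0.0506 to 0.111; 0.0297 to 0.186 over all). Slc38a1, a glutamine carrier, was called lower in blood day 1 (-0.95 ± 0.31, adjusted p = 0.0205), at -1.68 in batch 1 and 0.02 in batch 2, and not without base replicate 1, 2 or 3 (0.0639, 0.0628 and 0.0632; 0.00186 to 0.252 over all).

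Aminoacyl-tRNA synthetases, which load amino acids onto tRNAs for translation, were mostly lower. Of 5 in the table, 4 were lower in both blood groups and 5 in brain. Nars had 2804 to 4964 (median 3117) in brain day 5, 2052 to 3507 (median 3161) in blood day 5, 1313 to 4289 (median 3168) in blood day 1, and 8835, 9564, 9407, 7615 and 13768 in base. Sars had 2559 to 3896 (median 3221) in brain day 5, 2680.4 to 4049 (median 3148) in blood day 5, 2934 to 5433 (median 3965) in blood day 1, and 8458, 9233, 8859, 16753 and 8598 in base. For both, no transferred library reached the lowest base library. Nars was lower, at -1.50 ± 0.26 (adjusted p = 4.30e-05) in brain, -1.71 ± 0.26 (adjusted p = 2.11e-05) in blood day 5 and -1.81 ± 0.26 (adjusted p = 1.10e-05) in blood day 1, and Sars, at -1.64 ± 0.21, -1.59 ± 0.21 and -1.34 ± 0.21 (adjusted p = 6.77e-07, 3.31e-06 and 3.47e-05). Gars was lower, at -1.25 ± 0.18, -1.34 ± 0.18 and -1.27 ± 0.18, and Aars, at -0.84 ± 0.28, -1.31 ± 0.28 and -1.21 ± 0.28, in the same order. Exons of Aars overlap those of Exosc6 on the same strand, so its reads are uncertain. With the closest libraries averaged, Aars was not called in brain (adjusted p = 0.164; 0.000345 to 0.164 over all alternatives) or blood day 1 (0.0527; 8.92e-06 to 0.0527). Wars, also known to be induced by interferon, was called lower in brain (-0.57 ± 0.23, adjusted p = 0.0425; -1.05 in batch 1 and 0.07 in batch 2) and not in blood day 5 (-0.28 ± 0.23) or day 1 (-0.06 ± 0.23). Its adjusted p ran from 0.00181 to 0.377 over the alternatives, and the call was lost without base replicate 1, 2 or 3 or brain replicate 1, 2, 3, 5 or 6 (0.0501 to 0.115).

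Brain and blood were also compared on the same day. Of the 38 members, 16 were called higher in brain day 5 than in blood day 5 and 3 lower, beside 33.6% and 14.3% of all genes tested (47.9% called in either direction). Values of 13 of the 38 members did not overlap between the groups, a share close to the 35.4% of all genes. With equal library totals the split was 14 higher and 7 lower, and with edgeR and TMM scaling 13 and 7. Shmt2, Mthfd2, Wars and Cebpb were then called lower too. The members' median difference was 0.61 and that of all genes 0.47. Under equal totals they were 0.33 and 0.08, and under TMM 0.24 and 0.14. Within batch 1 they were 0.94 and 0.50, and within batch 2 0.27 and 0.48, so the members lay above all genes in batch 1 and below them in batch 2. The higher members were 6 of the 7 amino acid enzymes, 7 of the 9 transporters, Psat1, Atf5 and Vldlr. No synthetase was called, nor was Atf4, Trib3, Chac1, Sesn2 or Ddit4. Trib3 came nearest, at 2.27 ± 0.96 (adjusted p = 0.0557) with no overlap, while the synthetases lay between -0.30 for Wars and 0.47 for Aars, with SEs of 0.17 to 0.27.

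Vldlr, the very low density lipoprotein receptor and an ATF4 target that brain cells also express, had 487 to 2176 (median 1585) in brain day 5, 0 to 49.1 (median 2.48) in blood day 5, 0 to 214 (median 24.4) in blood day 1, and 279.8, 195, 291, 371 and 793 in base. It did not overlap between brain and blood day 5, at 8.16 ± 1.11 (adjusted p = 1.67e-06), and was not called between brain and base (2.03 ± 1.17, adjusted p = 0.161). The ratio of its brain to blood day 5 means was 97.25, a smaller fold than the difference of mean logs gives. Vldlr was lower than base in blood day 5 (-6.13 ± 1.17, adjusted p = 0.000254) and in blood day 1 (-4.03 ± 1.17, adjusted p = 0.0108), where edgeR did not call it (adjusted p = 0.0711; 0.00266 to 0.0711 over all alternatives). Cbs was higher by 9.32 ± 0.73 (adjusted p = 2.77e-10), Cth by 5.91 ± 0.99 (adjusted p = 2.73e-05), Gpt2 by 4.30 ± 0.93 (adjusted p = 0.000458) and Psat1 by 2.84 ± 0.36 (adjusted p = 7.12e-07), all without overlap. The Cbs value rests on 14 blood day 5 reads, and its size depends on the pseudocount of 1. As only brain libraries brought Cbs past the filter, this call is descriptive. Among carriers, Slc1a4 was higher by 4.29 ± 1.23 (adjusted p = 0.00584), Slc7a11 by 3.12 ± 0.54 (adjusted p = 3.90e-05) and Slc38a2 by 2.16 ± 0.52 (adjusted p = 0.00132). Pycr1 was higher by 3.52 ± 1.03 (adjusted p = 0.00675) and Got1 by 1.90 ± 0.23 (adjusted p = 3.01e-07), again without overlap. Atf5 was at 3.06 ± 1.07 (adjusted p = 0.0214), 5.93 in batch 1 and 0.19 in batch 2, and was no longer called without brain replicate 1 or 3 (adjusted p = 0.0655 and 0.0681) or without blood day 5 replicate 2 or 3 (0.063 and 0.0542; 0.00163 to 0.0867 over all). Slc7a3 was at 2.58 ± 0.89 (adjusted p = 0.0203) and not called without brain replicate 4 or 6 (0.0537 and 0.067; 0.00184 to 0.247 over all). Slc38a1 was at 0.74 ± 0.29 (adjusted p = 0.0402) and lost its call under 12 of 22 alternatives, among them without any one of blood day 5 replicates 1, 2, 3 and 6 or brain replicates 1, 3, 4, 5 and 6 (0.0531 to 0.0901; 0.00996 to 0.513 over all).

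The 3 members lower in brain than in blood day 5 were Slc1a5 (-2.77 ± 0.27, adjusted p = 1.00e-08), Mthfd1l (-1.88 ± 0.49, adjusted p = 0.00277) and Aldh18a1 (-0.85 ± 0.26, adjusted p = 0.0099). Slc1a5 and Mthfd1l did not overlap between the groups. Markers moved with this comparison as well. Of those in the table, 7 of 7 astrocyte, 6 of 6 choroid plexus, 6 of 7 microglia and 6 of 6 oligodendrocyte markers were called higher in brain than in blood day 5, and 5 of 7 tested ILC2 markers lower. The astrocyte share was 0.0828 to 0.237% in brain and 0.00204 to 0.00763% in blood day 5, the choroid plexus share 1.35 to 7.83% and 0.00028 to 0.0206%, and no marker of these lists was at 0 throughout either group. Their part in the differences between brain and blood was not tested.

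**Figure D4:**
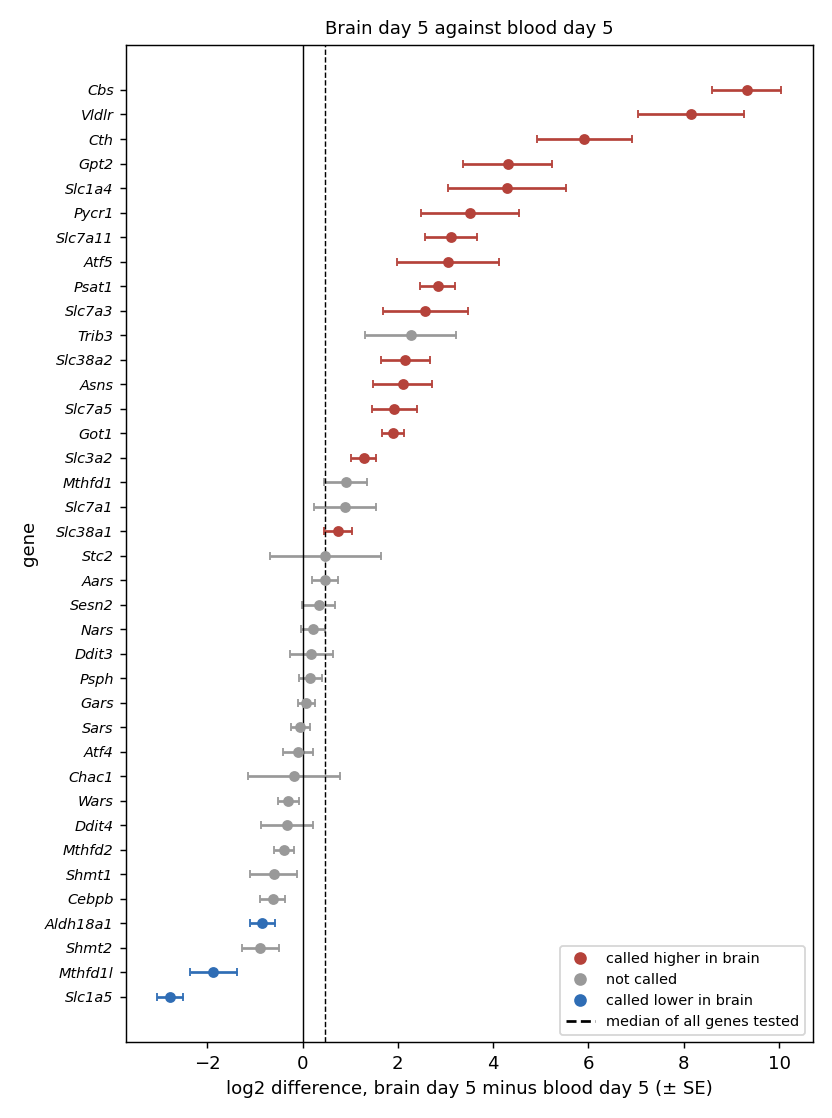
Log2 difference (x axis) of each member, brain day 5 minus blood day 5, with its SE as a bar; red is called higher in brain, blue called lower and grey not called, and the dashed line is the median of all 15268 genes tested at 0.47. Cbs, Vldlr and Cth lie farthest to the right and Slc1a5 farthest to the left, with the synthetases near 0.

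Between the blood days no member was called, beside 0.105% of all genes (0.0982% higher and 0.00655% lower). With limma 3 members had an unadjusted p below 0.05: Cebpb (1.27 ± 0.27, adjusted p = 0.081), Chac1 (3.34 ± 0.96, adjusted p = 0.33) and Slc7a5 (-1.07 ± 0.47, adjusted p = 0.618). In Cebpb the groups did not overlap, as in 1.12% of all genes. edgeR called 0 members and DESeq2 called 1, Cebpb (adjusted p = 0.00167). The replicate block also called Cebpb (adjusted p = 0.0381), with a range of 0.00167 to 0.274 over its alternatives.

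Calls were made within each batch. Fitted to batch 1 alone, 19 members were lower than base in brain, 28 in blood day 5 and 27 in blood day 1, and in batch 2 alone 14, 15 and 16, with fewer libraries in each fit. Called higher were 3, 1 and 1 in batch 1 and 7, 2 and 2 in batch 2, in the same order. Shares of all genes called in these fits were not counted. The members' median differences were -1.38, -2.05 and -2.15 in batch 1, beside 0.48, 0 and 0 for all genes. In batch 2 they were -1.14, -1.51 and -1.48, beside 0.94, 0.21 and 0. Of the members called over both batches, 25 of 28 had the same sign in both batches in brain, 27 of 27 in blood day 5 and 26 of 29 in blood day 1. Ddit3 in blood day 5 is among them, though it was -0.03 in batch 1 and -3.26 in batch 2. Without the 4 libraries that stand apart within their groups, 22 members were lower and 6 higher in brain than in base, 27 and 1 in blood day 5, and 27 and 1 in blood day 1.

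Genes of the same pathways outside the list are given as counts. Among all genes tested, 37.5% were higher and 11.7% lower in brain than in base, 19.6% and 11.4% in blood day 5, and 18.1% and 14% in blood day 1. Of 14 other synthetases, 9 were lower in brain than in base, 7 in blood day 5 and 8 in blood day 1, and none was higher in any of the 3. The largest called differences were Lars in brain (963 ± 59.2 in brain day 5 against 3053 ± 905 in base; -1.60 ± 0.36 (adjusted p = 0.000696)) and Iars in blood (-1.86 ± 0.28 on day 5 and -2.19 ± 0.28 on day 1). Among 20 other one-carbon and purine genes, 6 were higher and 2 lower in brain, against 4 lower and 0 higher in each blood group. Gldc, of the glycine cleavage system, had 546 ± 362 in brain day 5 against 2.08 ± 3.06 in base (7.83 ± 0.69, adjusted p = 1.73e-09). Aldh1l2, the mitochondrial folate oxidiser, fell by 3.88 in blood day 5 and 3.78 in blood day 1 on the log2 scale, against a base level of 36.8 ± 37.9 (SD). Of 16 other amino acid enzymes tested, 5 were higher and 1 lower in brain and 3 each way in both blood groups. Bcat1, the cytosolic branched-chain transaminase, averaged 19.8 ± 25.6 in blood day 5 and 15.7 ± 17.8 in blood day 1, against 1354 ± 785 in base (SD), a log2 difference of -7.38 ± 1.19 and -7.41 ± 1.19. Prodh, which degrades proline, had 2718 ± 3079 in brain day 5 against 9.88 ± 8.13 in base (8.01 ± 1.15, adjusted p = 3.00e-06).

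Of 16 other transporters tested, 10 were higher and 0 lower in brain, 6 higher and 2 lower in blood day 5, and 6 higher and 1 lower in blood day 1. Slc1a3, a glutamate carrier that is also one of the astrocyte markers, had 5154 ± 1891 in brain day 5 against 1.83 ± 1.83 in base (11.10 ± 1.01, adjusted p = 3.01e-09). In blood day 5, Slc7a8 was higher at 6.46 ± 1.26 (adjusted p = 0.000334), and in blood day 1 Slc1a2, another astrocyte marker, was lower at -5.91 ± 0.89 (adjusted p = 1.73e-05). Among 14 regulators of the integrated stress response, 4 were higher and 4 lower in brain, 3 and 3 in blood day 5, and 3 and 4 in blood day 1. Gdf15, a stress cytokine, had 536 ± 344 in brain day 5 against 1.36 ± 2.24 in base (8.05 ± 1.17, adjusted p = 3.67e-06), and Gadd45a, a growth arrest gene, was higher by 4.93 ± 0.67 in blood day 5 and 5.69 ± 0.67 in blood day 1. Of 17 nutrient-sensing genes, 5 were higher and 1 lower in brain, 4 and 1 in blood day 5, and 6 and 1 in blood day 1. Sesn1, a FOXO and p53 target related to Sesn2, moved opposite to Sesn2, with 3545 ± 582 in blood day 5, 2669.9 ± 1019.8 in blood day 1 and 219 ± 147 in base (SD). It was higher by 4.39 ± 0.48 (adjusted p = 1.96e-07) in blood day 5 and 3.89 ± 0.48 (adjusted p = 1.18e-06) in blood day 1. Rragd, a GTPase that brings mTORC1 to lysosomes, was higher in brain, with 793 ± 472 in brain day 5 against 4.57 ± 3.68 in base (7.26 ± 0.79, adjusted p = 4.97e-08).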

How the data were processed

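Poly-A RNA of 23 libraries was sequenced as pairs of 150 bp, per the labels' protocols. The tools named are fastp and HISAT2 2.0.5, with the build mm10, per the submitters' processing notes; counter, annotation and strand setting are not given there. The signal values the authors deposited as normalized counts are gene read counts divided by 1 size factor per library. Whole reads were recovered from them: 100% of values lay within 0.1 read of a whole number in every library. On these reads, edgeR called 7545 genes in brain day 5 against base, 4616 in blood day 5 and 4834 in blood day 1. Depth is the sum of the recovered reads. Floors and intervals allow for counting error alone, as PCR duplicates are not separate molecules.

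Each value had 1 added before its log2 was taken, which shrinks the log difference of low values. Where some libraries had no read, a difference of mean logs can still exceed the fold between group means. This held, among others, for Slc1a4, Chac1, Pycr1, Gpt2 and Vldlr in blood day 1 and for Vldlr in brain against blood day 5. In the latter the log2 difference of Vldlr was 8.16 and the ratio of its group means 97.25. Folds of low genes are therefore not lower bounds. Fits used limma 3.58.1 (R 4.3.3, lmFit and a robust eBayes with a mean trend). Group and batch entered 1 model of all 23 libraries. Two-sided p-values were adjusted after Benjamini and Hochberg over 15268 genes, and 0.05 was the threshold. Differences carry their SE. Scripts were tested on simulated data. Genes given with values in each group are Atf4, the largest called member of each role per comparison (with 100 or more as its mean in 1 group and batches of equal sign), the 8 largest in brain day 5 against blood day 5, and members called against the majority; Asns, Slc7a5, Ddit3 and the promoters shown were added after their values were seen. Other pathway genes are the largest called of each list. Members and lists were chosen with earlier results of these data known.

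Same-numbered libraries of different groups had correlations of deviations within batches of -0.104 to 0.189, and differently numbered ones -0.167 to 0.12, so replicate numbers were not taken as pairs. Base replicates 1 to 3 and brain replicates 1 and 3 were closest, with a chi-square per degree of freedom of 4.19 to 12.5 and 10.1, against at least 45 for other pairs of a group. They exceed sampling noise and stayed separate in the model. Alternatives changed the pseudocount (0.5), filter, scaling, batch term, libraries fitted and the test (edgeR 4.0.16, DESeq2 1.42.0). Coordinates come from GENCODE M21.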

Additional observations from a re-analysis of the deposited data

Results flagged for a closer look

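The 21 members named by the rules above were scanned for single libraries that stood apart, without the added Asns, Slc7a5 and Ddit3. A library was singled out in 15 of 84 gene and group sets. Its gap to the nearest other library was too large a share of the group's range (Dixon's 95% limit). Chance singles out about 1 in 20 such sets. Base replicate 4 was apart in Cebpb (682, others 258 to 366), Sars (16753, others 8458 to 9233), Slc38a2 (1544, others 3222 to 3797) and Cbs (1.36, all others 0). Base replicate 5 was apart in Atf4 (5289.9, others 11801 to 12145) and Gpt2 (2424, others 498 to 769). Blood day 1 replicate 2 was high in Atf4 (6189, others 1439.6 to 2872), Slc7a11 (245, others 45.7 to 112) and Vldlr (214, others 0 to 44.5). Blood day 1 replicate 6 was high in Mthfd1l (1254, others 189 to 515) and Slc1a5 (11816, others 3913 to 6802). In blood day 5, replicate 3 was high in Slc7a3 (20.5, others 0 to 1.65) and replicate 6 in Cbs (8.03, all others 0). In brain day 5, replicate 3 was high in Cbs (6710.3, others 118 to 1504) and replicate 2 in Trib3 (262, others 102 to 146).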

How the results depend on the processing

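Against base, the counts of members called stayed within 1.5 times in each direction under the alternatives fitted to both batches, leaving out each library included: 18 to 23 lower in brain day 5, 23 to 28 in blood day 5 and 22 to 28 in blood day 1. Every called member kept its direction in these; the fits within 1 batch, given above, moved counts by more and turned some signs. Of the calls, 20 of 28 in brain day 5 against base, 23 of 27 in blood day 5 against base, 21 of 29 in blood day 1 against base and 16 of 19 in brain against blood day 5 held under all alternatives, where DESeq2 values without an adjusted p were left out. In brain against blood day 5, the members called lower, 3 in the model with batch, numbered 7 with equal library totals, 7 with edgeR and TMM scaling, 5 when no other group was fitted and 5 without the 4 libraries standing apart. With the replicate block in place of the batch, 5 were lower. Between the blood days, 1 member was called higher with DESeq2 and 1 with the replicate block, against 0. The cause of these shifts was not tested. Depth mostly limits the lowest values, those of Stc2, of Cbs outside brain and of Slc7a3 outside base. Cth, Vldlr, Pycr1, Atf5, Slc1a4, Chac1, Trib3 and Gpt2 also had no read in 1 or more blood libraries. Some of these were deep: blood day 1 replicate 6, with 27.8M reads, had none of Pycr1, Gpt2, Atf5, Chac1 or Vldlr. In that library 11295 genes were detected and in blood day 1 replicate 2 11150, against 13356 to 15464 in other day 1 libraries. The part of depth in these zeros was not tested.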

Other observations

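The base group itself held 2 levels of many members. In 20 of 38 members both base libraries of batch 2 lay below all 3 of batch 1, and in 6 above them, beside 25.6% and 18.5% of all genes tested. Folate enzymes and carriers were among the lower ones: Mthfd1 had 259 and 251 in batch 2 and 1811 to 1899.6 in batch 1, Shmt1 119 and 251 against 765 to 819, and Slc7a1 1999.6 and 476 against 6939 to 7757. Trib3, Ddit3 and Slc7a3 lay the other way. Trib3 had 7022 and 3243 in batch 2 and 1539.7 to 1745 in batch 1, and Slc7a3 1476 and 1474 against 423 to 469. The difference was not tested, with 3 base libraries in batch 1 and 2 in batch 2.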
